A study of Mus musculus with 8 samples.

Results

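The regions described here are the H3K27ac regions of mouse primary hepatocytes (MPH) that hold the transcription start site (TSS) of a noncoding gene and of no protein-coding gene. Members were found by placing the starts of all mouse transcripts of GENCODE release M21 on the deposited regions of mm10. A region was kept when at least 1 start of a noncoding gene, and no start of a gene of type protein_coding, lay in it. This gave 938 of 32196 regions, with the starts of 1453 transcripts of 1017 noncoding genes. Of these regions, 862 held 1 noncoding gene, 59 held 2 and 17 held 3 or more. A further 9704 regions held a protein-coding start and 21554 held no start.

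MPH from adult male WT C57Bl6 mice (C57BL/6J in the study's methods) were exposed for 4 h to 1 µM thapsigargin, which blocks the calcium pump of the endoplasmic reticulum and so induces endoplasmic reticulum stress (ERS), or to vehicle (0.04% DMSO). Each treatment had 3 H3K27ac ChIP-seq libraries and 1 input library. The 3 deposited lists, H3K27ac UP, H3K27ac DOWN and unchanged, give positions only, so the depth and the spread between libraries are unknown. The study's text uses UP for regions whose H3K27ac signal increased with ERS and DOWN for those where it decreased. That meaning is used here. UP made 62.0% of the changed regions, the same share that the study's text gives for increased signal. The lists name no treatment, and the order of the treatments in the study's code, read alone, would give the opposite sign. The starts of Hspa5, Ddit3 and Xbp1, genes known to be induced by ERS, lay in UP regions, which goes with the study's wording. No level per library was at hand to check the direction further. Changed regions had passed the authors' FDR threshold in a model paired by experiment, and a changed region was listed as UP or DOWN only where bins of that direction clearly outnumbered those of the other. Regions with a more even mix of bins were in neither list.

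H3K27ac marks nucleosomes at active promoters and enhancers. Active enhancers are often transcribed into noncoding RNA, so an annotated noncoding start in an acetylated region can be the promoter of a long noncoding RNA (lncRNA) or part of an enhancer, and ChIP-seq of this mark does not tell these apart. The annotated start of a microRNA gene is the 5′ end of its hairpin, not that of the primary transcript, and the start of a pseudogene is where its likeness to the parent gene begins. Among hepatocyte genes, Alb, Apoa1, Ttr, Hnf4a and Serpina1a had their TSS in an H3K27ac region, while the macrophage genes Ptprc, Lyz2 and Adgre1, the cholangiocyte genes Krt19 and Epcam and the stellate cell genes Col1a1 and Lrat did not. Of the endothelial genes, Pecam1 had none and Stab2 had 1 unchanged region. In cell populations, fewer cells with a mark and less of it per cell cannot be told apart.

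Sequences around 4 noncoding starts are shown first, each 300 bases of mm10 from 250 before the start on, written 5′ to 3′ on the strand of the transcript. Single capitals mark the annotated start, and runs of capitals mark a motif match on either strand. Lncpint and 5031415H12Rik are shown because they start in the widest UP region and in the widest DOWN region of an antisense gene. Neither window held a motif that was searched. Alkbh3os1 started in the widest UP region whose start window held the ATF4/CHOP composite motif TGATGCAA, and the window also held the AP-1 motif TGANTCA at 2 places. 1700108F19Rik started in the only DOWN region whose window held the HNF4 motif CAAAGTCCA, here on the reverse strand.
Lncpint, chr6:31087863-31088162, minus strand: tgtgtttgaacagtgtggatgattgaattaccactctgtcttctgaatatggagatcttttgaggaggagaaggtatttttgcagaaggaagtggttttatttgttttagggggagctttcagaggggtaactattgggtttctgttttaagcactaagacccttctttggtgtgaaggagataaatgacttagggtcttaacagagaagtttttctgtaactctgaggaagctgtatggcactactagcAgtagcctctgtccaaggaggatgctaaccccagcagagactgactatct
5031415H12Rik, chr17:70755533-70755832, minus strand: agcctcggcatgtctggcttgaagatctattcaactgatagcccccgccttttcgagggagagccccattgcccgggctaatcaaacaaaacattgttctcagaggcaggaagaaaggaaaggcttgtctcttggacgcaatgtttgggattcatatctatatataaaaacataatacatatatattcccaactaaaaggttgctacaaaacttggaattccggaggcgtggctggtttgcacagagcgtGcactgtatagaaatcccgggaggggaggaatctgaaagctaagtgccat
Alkbh3os1, chr2:93979784-93980083, plus strand: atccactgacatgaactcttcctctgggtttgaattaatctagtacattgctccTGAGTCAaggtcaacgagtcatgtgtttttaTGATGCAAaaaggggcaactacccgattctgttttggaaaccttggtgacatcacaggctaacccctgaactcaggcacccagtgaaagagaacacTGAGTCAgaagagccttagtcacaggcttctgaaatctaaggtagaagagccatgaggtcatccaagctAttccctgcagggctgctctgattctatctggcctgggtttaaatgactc
1700108F19Rik, chr14:76681504-76681803, plus strand: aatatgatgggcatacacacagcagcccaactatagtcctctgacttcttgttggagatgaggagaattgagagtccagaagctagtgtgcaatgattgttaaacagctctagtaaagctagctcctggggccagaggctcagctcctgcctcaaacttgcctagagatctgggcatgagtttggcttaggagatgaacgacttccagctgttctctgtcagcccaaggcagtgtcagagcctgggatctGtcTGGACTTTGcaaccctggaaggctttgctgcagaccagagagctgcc

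Among the 938 regions, 162 were H3K27ac UP and 135 were H3K27ac DOWN. UP regions made 17.3% of them (95% Wilson interval from 14.99% to 19.8%), beside 17.1% of all regions. DOWN regions made 14.4% (12.3% to 16.8%), beside 10.5% of all regions. Together 31.7% had changed (28.8% to 34.7%), beside 27.6% of all regions. Intervals here cover counting error over regions only, and no test of the difference between sets was made. Width differed between the sets and was not held constant in these shares. At protein-coding starts the shares were 19.4% UP and 8.17% DOWN, and in regions with no start they were 16.1% UP and 11.4% DOWN. UP regions thus made 54.5% of the changed regions at noncoding starts (48.9% to 60.1%), 70.4% at protein-coding starts and 58.6% where no start lay. The order of UP and DOWN at noncoding starts depended on the unit. By base pairs, 23.1% was UP and 24.4% DOWN. Over all regions, UP regions spanned 12847435 bp and DOWN regions 10888799 bp of 60527033 bp. Among the 464 regions that covered 500 bp on each side of a noncoding start, 21.3% were UP and 21.8% DOWN. That rule keeps wider regions, and no like share over all regions was computed.

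**Figure D1:**
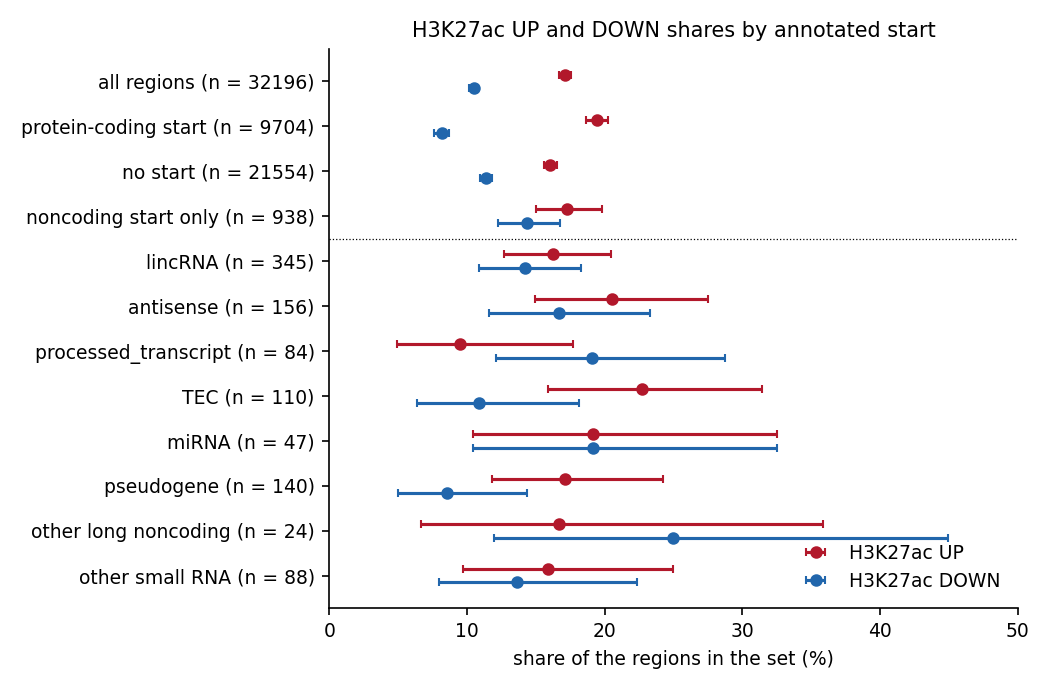
Shares of H3K27ac UP (red) and DOWN (blue) regions, in percent of the regions in each set on the vertical axis, with 95% Wilson intervals as bars. Sets above the dotted line divide all regions by annotated start, and those under it divide the 938 regions by gene type. The DOWN share is 14.4% at noncoding starts, above 8.17% at protein-coding starts.

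UP and DOWN counts are given by gene type, with no test between types. A region with starts of several types is counted in each, which applied to 50 regions. The largest type was lincRNA, long RNA genes that lie between protein-coding genes, with 56 UP (16.2%) and 49 DOWN (14.2%) of 345 regions. Antisense genes, which overlap a coding gene on the other strand, had 32 UP (20.5%) and 26 DOWN (16.7%) of 156. The type processed_transcript, which holds noncoding genes of no more specific class and many small RNA hosts, had 8 UP and 16 DOWN of 84. Its UP share was 9.52% (4.91% to 17.7%) and its DOWN share 19.05% (12.1% to 28.7%). Pseudogenes had 24 UP and 12 DOWN of 140, or 17.1% and 8.57%, close to the 17.1% and 10.5% of all regions. TEC genes, a class of transcribed loci that await verification, had 25 UP and 12 DOWN of 110, or 22.7% and 10.9%. The UP and DOWN intervals of each of these 3 types overlapped, at 15.9% to 31.4% against 6.35% to 18.1% for TEC and 11.8% to 24.2% against 4.97% to 14.4% for pseudogenes.

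Small RNA genes were few. Over all regions 17.1% were UP and 10.5% DOWN, and the snRNA, snoRNA and misc_RNA counts are too small to set against these shares. Regions with a microRNA start numbered 47, of which 9 were UP and 9 DOWN, or 19.1% each (10.4% to 32.5%). Those with a snRNA start, genes of the spliceosomal and related RNAs, held 3 UP and 8 DOWN of 37. Of the DOWN regions, those at Gm25099, Gm23143 and Gm23287, lay side by side at chr4:117189241-117211120. Of 29 snoRNA regions, whose RNAs guide the modification of other RNAs, 6 were UP and 4 DOWN. The type misc_RNA had 4 UP and 0 DOWN of 15, among them Rny1, a Y RNA. The remaining long types, mostly sense_intronic, had 4 UP and 6 DOWN of 24. When grouped into regions with any lncRNA gene and the rest, 98 UP and 96 DOWN of 595 stood beside 64 UP and 39 DOWN of 343. The shares were 16.5% UP and 16.1% DOWN with any lncRNA gene, and 18.7% and 11.4% in the rest.

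Regions at noncoding starts were wider than most. Their median width was 1812.5 bp, beside 1311 bp over all regions, 1731.5 bp at protein-coding starts and 1147 bp in regions with no start. A wide region has more room for a start, so this width is in part set by the rule. DOWN regions had a median of 3257 bp, with the middle 50% between 1984.5 and 5902.5 bp. UP regions had a median of 2464.5 bp (1517.25 to 3895.75 bp), and unchanged regions one of 1475 bp (921 to 2490 bp). The same order was seen over all regions, at 2229, 1621.5 and 1155 bp. It held in the lincRNA type, with medians of 3401, 2185 and 1742.5 bp. In other small RNA genes the UP median of 2546 bp lay above the DOWN median of 1768 bp.

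**Figure D2:**
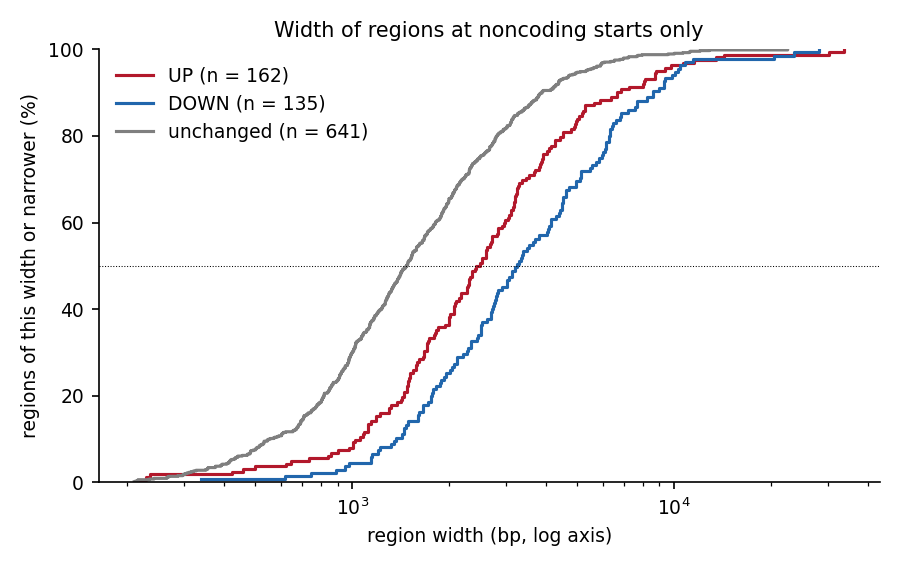
Cumulative share in percent of the 162 UP, 135 DOWN and 641 unchanged regions at noncoding starts (vertical axis) with a given width in bp or less (horizontal log axis). The curves cross the dotted 50% line first for the unchanged class (1475 bp), then for UP (2464.5 bp) and last for DOWN (3257 bp).

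From 500 bp on, the shares of UP and DOWN were larger in wider regions. Of the 158 noncoding-start regions of 4000 bp or more, 24.7% were UP (18.6% to 31.95%) and 36.7% DOWN (29.6% to 44.5%). At protein-coding starts of this width the shares were 26.3% and 25.7%, and in regions with no start they were 22.8% and 30.3%. Over all regions of this width they were 24.7% and 28.3%. The DOWN interval at noncoding starts lay above that at protein-coding starts. Of the 156 regions of at least 500 and under 1000 bp, 4.49% were UP (2.19% to 8.97%) and 3.21% DOWN, beside 11.5% and 4.87% of all regions of that width. From 1000 to under 2000 bp, the DOWN share was 9.18% at noncoding starts, 3.67% at protein-coding starts and 11.7% where no start lay. Over all regions of that width it was 9.19%. From 2000 to under 4000 bp the same 3 shares were 16.3%, 9.49% and 20.4%, and over all regions 15.9%. In both width classes the interval of the noncoding starts lay above that of the protein-coding starts and contained the share of all regions.

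**Figure D3:**
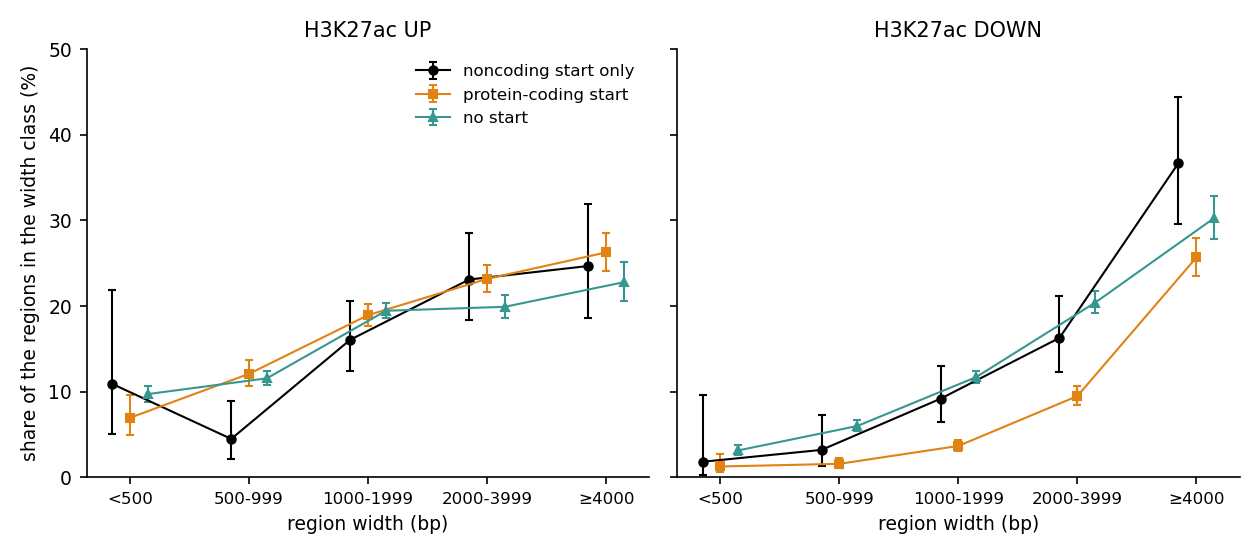
Shares of H3K27ac UP (left) and DOWN (right) in percent, by region width in bp, for regions at noncoding starts only (black circles), at protein-coding starts (orange squares) and with no start (green triangles), with 95% Wilson intervals. From 2000 to under 4000 bp the DOWN shares are 16.3%, 9.49% and 20.4%.

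The widest UP region spanned 33768 bp at chr6:31070223-31103990 and held starts of Lncpint, a p53-induced lncRNA, and of Gm13833. No protein-coding start lay within 50 kb, the nearest being that of Klf14 at 111145 bp. This locus held 3 other noncoding-start regions. The TEC gene Gm37728 started in an UP region of 8738 bp. The TEC gene 5330406M23Rik started in an unchanged region of 12879 bp, and Mir29a and Mir29b-1 in an unchanged one of 10014 bp. A second region at another Lncpint start, chr6:31215207-31223157, was also unchanged. Starts of Lncpint thus lay in regions of different classes.

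The next widest UP regions lay in or beside genes of known function. A gene's promoter region is called UP or DOWN here when any of its starts lay in such a region, even if others did not. A region is called within a gene when it overlapped the span of that gene's transcripts. Gm16180 started in a region of 30334 bp within the body of Insr, the insulin receptor gene, whose own promoter region was unchanged. Ptges3-ps, a pseudogene, started in one of 14279 bp. Egfros started in one of 13468 bp within Egfr, which encodes the EGF receptor and whose promoter region was DOWN. Gm24996, annotated as a small RNA, started in one of 11498 bp within Nfe2l2, which encodes the antioxidant regulator NRF2. The promoter region of Nfe2l2 was DOWN as well, and 6 DOWN and 2 UP regions lay within 50 kb. Of these 5 widest UP regions, 3 overlapped a coding gene whose promoter region was not UP. A promoter region that was not UP was the usual case near UP regions. The nearest coding gene had an UP one for 22.8% of the 162 UP regions and for 23.2% of UP regions with no start.

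The widest DOWN region spanned 28110 bp at chr14:25472009-25500118, at a start of Gm47921 within Zmiz1, a gene for a transcriptional coregulator. The nearest start of Zmiz1 lay 2537 bp away and Zmiz1 had a DOWN promoter region. The DOWN region of 10409 bp at Mir3075 lay in the same gene. 5031415H12Rik started in a DOWN region of 23595 bp within Dlgap1, whose promoter had no region. Gm16351 started in one of 20399 bp within Sorbs2, whose promoter region was DOWN. Gm31522 started in one of 11409 bp, 14403 bp from Ccl2, a chemokine gene with a DOWN promoter region. Gm14319 started in one of 10845 bp. The nearest coding start, that of Ptpn1, lay 70327 bp away, and Ptpn1 had an UP promoter region. The 3 widest unchanged regions, at Gm48996, 5330406M23Rik and Gm43611, were all at TEC genes and spanned 22529, 12879 and 12029 bp.

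Other types had narrower extremes. The widest UP region with a processed_transcript start was that of 1810026B05Rik, at 8762 bp, 9771 bp from Chd2. Its DOWN counterpart, at B230206L02Rik, spanned 6401 bp. Among DOWN regions, Gm39157 and Gm45817 shared the widest with a TEC start, at 9294 bp, Gm49645 held the widest with a pseudogene start, at 9878 bp, and Gm24086 and Platr22 shared the widest with a small RNA start, at 8244 bp. AC122252.1, within Dusp1, started in the widest UP region of the remaining long types, at 7992 bp.

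The mature sequences of 8 microRNAs whose hairpins lay in changed regions are given from RefSeq (GRCm38), since the seed, bases 2 to 8 in capitals, sets which messages a microRNA can pair with. Of 51 microRNA genes with a start in these regions, 36 were matched in that source by symbol.
mmu-miR-192-5p, DOWN: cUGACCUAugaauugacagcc
mmu-miR-194-5p, DOWN: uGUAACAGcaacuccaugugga
mmu-miR-193a-3p, DOWN: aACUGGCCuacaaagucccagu
mmu-miR-30a-5p, UP: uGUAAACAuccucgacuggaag
mmu-miR-148a-3p, UP: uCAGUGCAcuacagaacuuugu
mmu-miR-28a-5p, UP: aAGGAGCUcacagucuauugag
mmu-miR-294-3p, UP: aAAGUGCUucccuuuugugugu
mmu-miR-295-3p, UP: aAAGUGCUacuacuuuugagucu

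Mir192 and Mir194-2, which encode microRNAs abundant in liver, started together in a DOWN region at chr19:6262466-6265722, 4125 bp from Atg2a. Their 5p products have different seeds. Mir193a started in a DOWN region of 10045 bp, and the nearest coding start, that of Rab11fip4, lay 50294 bp away. The other DOWN regions with a microRNA start were those of Mir3075, Mir1960, Mir7671, Gm23762, Mir190a, Mir6925 and Mir3092, from 1492 to 10409 bp wide. Mir7671 lay 4985 bp from Irf1, whose promoter region was unchanged.

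Mir30a, a member of a broadly expressed family, started in the widest UP region with a microRNA, of 4795 bp at chr1:23267747-23272541. Mir148a, which is abundant in hepatocytes, started in an UP region of 3107 bp that had no other H3K27ac region within 50 kb, and Nfe2l3, the nearest coding gene, was 159877 bp away. Mir28a started in an UP region within Lpp, whose promoter region was DOWN. Mir293, Mir294 and Mir295, of a cluster known from embryonic stem cells, shared an UP region of 1373 bp within the annotated body of Nlrp12. The 3p products of Mir294 and Mir295 have the same seed, AAGUGCU. Mir1192 lay 5450 bp from Klf9, whose promoter region was UP. The others were Mir3968, Mir6926, Mir21c and Gm44467. The hairpins of Mir29a and Mir29b-1, whose 3p products share the seed AGCACCA, lay in an unchanged region.

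Well-studied noncoding genes were looked up by name. Pvt1, next to Myc, had starts in UP regions of 8740 and 1119 bp. Kcnq1ot1, an imprinted antisense RNA, started in an UP region of 2608 bp. Snhg15, a snoRNA host, started in a DOWN region of 4133 bp, while 3 other snoRNA hosts of the list, Snhg5, Snhg8 and Snhg12, were at unchanged regions. The starts of Airn, Dleu2, Trp53cor1, Mir155hg, Peg13, Platr4, Jpx, Ftx and Firre were in unchanged regions, as were those of the short RNAs Terc and Rn7sk. Gas5, Snhg1, Tug1, Zfas1 and Rmrp shared their region with a coding start and were not counted. Neat1, Malat1, Meg3 and H19 had no start in a region of the 3 lists.

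Genes with starts in more than 1 region could belong to several classes. Besides Lncpint, Gm34574 and Olfr542-ps1 had starts in an UP and an unchanged region, and Gm36283 in a DOWN and an unchanged one. 1700028E10Rik had starts in an UP region of 3238 bp at chr5:151367114-151370351 and in a DOWN region of 6139 bp at chr5:151405625-151411763. When regions at noncoding starts within 50 kb of each other were joined, they fell into 834 loci, of which 750 held 1 region. Of 21 loci with 2 or more changed regions, the changed ones were all UP in 6, all DOWN in 9 and of both directions in 6.

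The median distance to the nearest protein-coding TSS was 19390 bp, beside 14470.5 bp for regions with no start. The class medians were close to each other, 19999 bp in the UP class, 19456 bp in the DOWN class and 19211 bp in the unchanged class. Only 50 regions lay within 1000 bp of a coding start and 237 lay more than 50 kb from any. The body of a protein-coding gene overlapped 326 regions (34.8%), a share of 37.7% in the UP class, 37.8% in the DOWN class and 33.4% in the unchanged class.

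Classes of neighbouring regions leaned the same way as those of the noncoding starts. The nearest coding gene of the 162 UP regions had an UP promoter region in 37 cases and a DOWN one in 19. For the 135 DOWN regions the counts were 13 UP and 32 DOWN. Where both the region and that promoter region had changed in 1 direction, the class was the same in 69 of 101 cases, or 68.3% (58.7% to 76.6%). In regions with no start this share was 70.0%. Within 50 kb of UP regions, 24.1% of the other H3K27ac regions were UP and 8.74% DOWN. Around DOWN regions the shares were 8.69% UP and 23.4% DOWN, and around unchanged regions 15.02% UP and 10.5% DOWN. A similar lean was seen over all regions, so it was not particular to noncoding starts. There the shares were 23.2% UP and 7.40% DOWN around UP regions, and 10.5% UP and 19.7% DOWN around DOWN regions. Nearby regions share a locus and are not independent of each other.

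**Figure D4:**
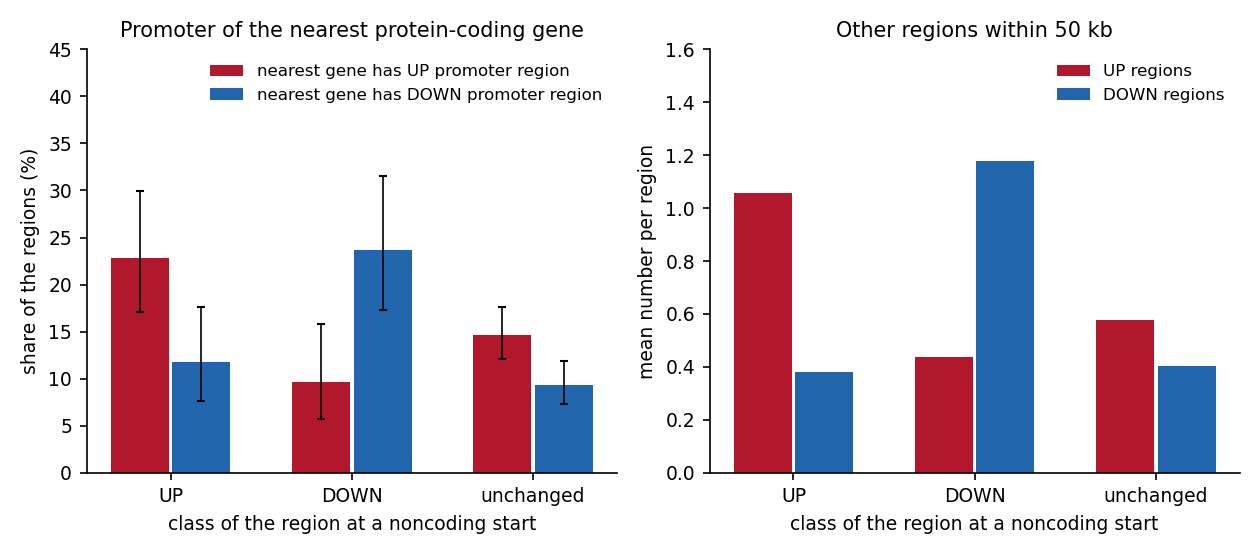
Left, share in percent of the UP, DOWN and unchanged regions at noncoding starts whose nearest protein-coding gene has an UP (red) or DOWN (blue) promoter region, with 95% Wilson intervals. Right, mean number of other UP and DOWN regions within 50 kb, which is 1.06 UP around UP regions and 1.18 DOWN around DOWN regions.

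The nearest coding gene belonged to the unfolded protein response (UPR) in 6 regions, each at a different gene. These are too few to set against the 17.1% UP and 10.5% DOWN of all regions. All 6 nearest genes had an UP promoter region. The noncoding-start region was UP for D730003I15Rik, 3760 bp from Atf3, a stress-induced transcription factor (TF) gene, and for Rny1, 23692 bp from Pdia4, which encodes an ER chaperone. It was DOWN for Gm11963, 16856 bp from Xbp1, the TF gene spliced by ERN1. It was unchanged at Gm15889 near Herpud1, 1810014B01Rik near Hsp90b1 and Snord104 near Ern1. Regions with no start beside UPR genes were UP in 17 and DOWN in 9 of 62 cases, or 27.4% and 14.5%.

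Beside hepatocyte TF genes lay 7 regions, of which 2 were DOWN and 1 UP, too few to set against the 17.1% UP and 10.5% DOWN of all regions. Regions with no start beside these genes were UP in 11 and DOWN in 28 of 163 cases. Hnf4aos, antisense to Hnf4a, started in a DOWN region of 7192 bp, 4542 bp from the nearest start of Hnf4a, whose promoter region was DOWN, and 5 DOWN and 0 UP regions lay within 50 kb. 9030622O22Rik started in a DOWN region of 4497 bp, 3818 bp from Foxa2, which also had a DOWN promoter region. Gm44812, 209454 bp from Nr2f2, was in an UP region. Those near Ppara, Onecut1 and Onecut2 were unchanged, as was a further one 182091 bp from Nr2f2. Beside genes for hepatocyte products only 2 regions were found, near G6pc and Apob, and both were unchanged. Regions with no start there were UP in 15 and DOWN in 9 of 92 cases. AP-1, KLF and early genes were nearest to 9 regions, 4 of them UP and 1 DOWN (Gm20442, 57308 bp from Ier3). The UP ones were D730003I15Rik near Atf3, Mir1192 near Klf9, and the Pvt1 regions, 50170 and 234808 bp from Myc. These 9 regions were likewise too few to set against all regions. Regions with no start beside the same genes were UP in 19 and DOWN in 13 of 101 cases.

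The study's LIVER-ID genes, with broad H3K4me3 domains in liver and few other tissues, were the nearest coding genes of 55 regions, of which 10 were UP and 9 DOWN. UBQ genes, whose broad domains in liver are shared with other tissues, were nearest to 97, of which 22 were UP and 14 DOWN. Over all regions 17.1% were UP and 10.5% DOWN. In regions with no start, the shares were 13.8% UP and 11.5% DOWN beside LIVER-ID genes and 16.4% and 11.0% beside UBQ genes. No difference between these lists was tested. Both lists also contain noncoding genes. Of the 99 noncoding LIVER-ID genes, 8 started in these regions, 75 only in regions with a coding start and 16 in no region. Hnf4aos, Mir193a and 0610031O16Rik, the last in a region of 8599 bp near Adh7, were DOWN, 0610043K17Rik was UP in a region of 9347 bp and 4 were unchanged. That UP region also held the start of E130102H24Rik, a UBQ gene. Of 138 noncoding UBQ genes, 9 started in these regions, 5 in UP, 1 in DOWN and 4 in unchanged regions, with Lncpint counted as both UP and unchanged. The noncoding genes of both lists were too few to set against all regions.

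In base composition the noncoding-start regions lay between the other sets. Their median GC content was 47.9%, beside 54.8% at protein-coding starts and 45.5% in regions with no start. The ratio of observed to expected CpG was at least 0.6, a usual mark of CpG islands, in 15.5% of them, in 55.5% at protein-coding starts and in 2.54% with no start. This ratio was reached by 8.64% of the UP class (5.22% to 14.0%), 3.704% of the DOWN class (1.59% to 8.38%) and 19.7% of the unchanged class (16.8% to 22.9%). Since the ratio is taken over the whole region and changed regions are wider, width was not held constant in this comparison. In the processed_transcript type 5 of 8 UP regions and 1 of 16 DOWN regions reached it.

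Motifs were searched on both strands in the 300 bases around 1 start per region. The AP-1 motif was found at 21.6% of UP starts (16.0% to 28.6%), 12.6% of DOWN starts (8.01% to 19.2%) and 11.9% of unchanged starts (9.58% to 14.6%). It was found at 8.56% of the 31005 noncoding genes with no start in a region and at 5.54% of protein-coding starts in regions, where GC content is higher, with a median of 60.7% against 48.8% at the UP starts and 50.3% at the unchanged starts of noncoding genes. The ATF4/CHOP motif was found at 5 UP starts, 1 DOWN start and 6 unchanged starts, or 3.09%, 0.741% and 0.936%, beside 1.12% of noncoding genes outside regions. The intervals of the 3 classes overlapped, at 1.325% to 7.02%, 0.131% to 4.08% and 0.430% to 2.03%. Besides Alkbh3os1, the UP starts with it were those of Bach2os, Gm47669, Gm37872 and Olfr542-ps1, and Gm37872 had 2 matches. The HNF4 motif was found at 0 of 162 UP, 1 of 135 DOWN and 5 of 641 unchanged starts, beside 0.413% of noncoding genes outside regions. The ERSE motif was found at none of the 938 starts, but it was rare elsewhere too. It was at 0.0194% of noncoding genes outside regions and 0.113% of protein-coding starts in regions. The FOXA motif TGTTTAC and the D-box TTANGTAA, bound by NFIL3 and the PAR-bZIP TFs, were at 4.90% and 1.92% of starts, with overlapping intervals for the 3 classes. At noncoding genes outside regions these shares were 4.55% and 3.31%. A match shows only that the letters are present. Over whole regions, the AP-1 motif occurred 0.599 times per kb in UP, 0.371 in DOWN and 0.468 in unchanged regions at noncoding starts, and 0.778, 0.413 and 0.567 times in regions with no start.

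**Figure D5:**
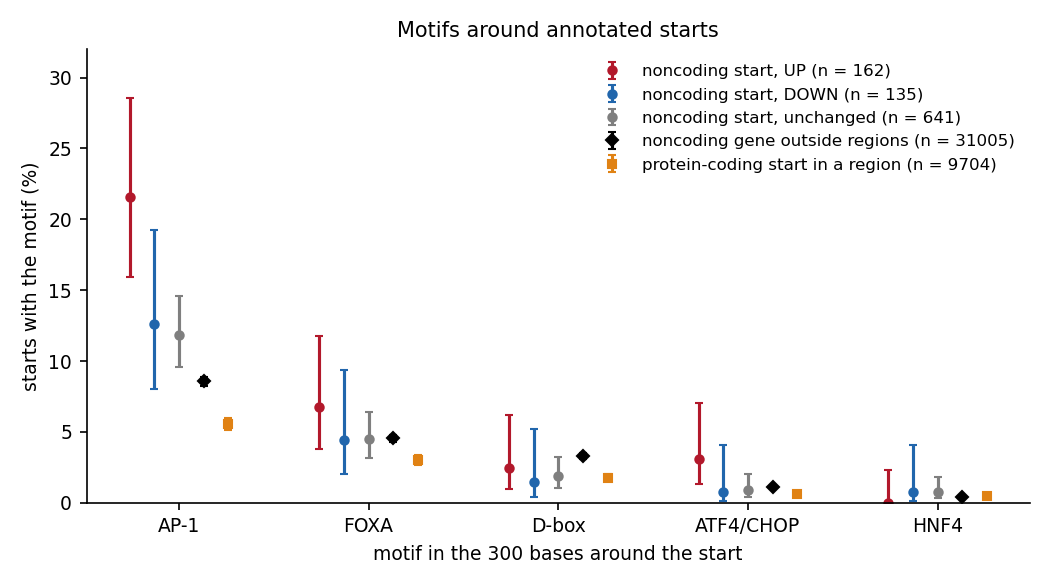
Share in percent of starts with each motif in the surrounding 300 bases, for UP, DOWN and unchanged regions at noncoding starts, noncoding genes outside regions and protein-coding starts in regions, with 95% Wilson intervals. AP-1 is at 21.6% of UP starts, 12.6% of DOWN starts and 8.56% of noncoding genes outside regions.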

How the data were processed

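H3K27ac ChIP-seq libraries of MPH (3 per treatment, with 1 input each) were aligned to mm10, with Bowtie and MACS2 named in the submitters' processing notes without versions. Per the study's methods, the authors called broad peaks on pooled libraries and tested bins with csaw after loess normalization, paired by experiment. The deposited lists hold region starts and ends in bp and a class. Depth is unknown, and no region has a value per library, so neither the normalization nor the test could be repeated and the class of each region is the authors'.

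Transcript starts were taken from GENCODE M21 (a later release than the one the study used) and sequences from the GRCm38 RefSeq genome. A script checked the counting functions on simulated regions. Shares have 95% Wilson intervals, and every comparison is a description without a test. The nearest coding gene was that with the TSS closest to a region's edge, and its promoter regions were all regions with one of its TSSs. A gene was classed UP or DOWN if any of these regions was, and unchanged only if all were. Genes with both UP and DOWN promoter regions were classed apart. For motifs, the start with the best annotation level was used. Named regions are the widest of each class and type, the 12 widest changed microRNA regions and those at or next to listed genes. The narrower microRNA regions, the genes with starts in several classes, the adjacent snRNA genes and the UP starts with an ATF4/CHOP motif were named after their values were seen. The members and lists were chosen with earlier results of these data known, and the counts of loci and of motifs per kb were added after seeing the data. Analyses used Python 3.11.15, numpy 2.4.6, pandas 2.3.3, scipy 1.17.1 and pysam.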

Additional observations from a re-analysis of the deposited data

How the results depend on the processing

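The UP and DOWN shares stayed within their intervals when pseudogenes and TEC genes were dropped, when regions within 1 kb of a coding start were dropped, with manually annotated transcripts only, with another definition of coding transcripts and with the outermost start of each gene. In regions of at least 1 kb, the UP share was 20.5% and the DOWN share 17.7%, and the median width of unchanged regions was 1995 bp. In regions that covered 500 bp on each side of the start, the shares were 21.3% and 21.8%, the unchanged median 2348 bp and the median distance to a coding start 22640 bp. Both of these settings keep wider regions, and their shares were not computed over all regions. By base pairs, 23.1% was UP, 24.4% DOWN, and UP made 48.7% of the changed length. Over all regions, UP regions spanned 12847435 bp and DOWN regions 10888799 bp of 60527033 bp. The median distance was 23041 bp with coding transcripts only and 23071 bp with outermost starts. All 24 alternatives for shares by gene type stayed within the main intervals. In a window of 500 bases on each side, the AP-1 motif was at 48.1% of UP, 33.3% of DOWN and 29.3% of unchanged starts. The ATF4/CHOP motif was at 7.41%, 1.48% and 3.59%, with overlapping intervals (4.29% to 12.5%, 0.407% to 5.24% and 2.40% to 5.33%). No paired analysis was possible because the lists hold no value per library, and for the same reason no replicate could be left out. The annotation sets which regions have a start: 125 of the 938 rest on automatic models only.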
